A study of Mus musculus with 12 samples.

Results

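Epithelial junction and polarity genes were followed in mouse uterine cells that had been kept with or without estrogen. The set is a list of 40 genes named by symbol for adherens junctions, tight junctions, desmosomes, apical polarity and the regulators and surface proteins of epithelial identity. All 40 were measured on the arrays, out of 19938 genes that had a probe set with a single gene symbol, and the brightest probe set stood for a gene where there were several, which was so for 1 member. The rule goes by symbol and not by a measured difference, but the list was chosen with earlier results of these data known. Uterine epithelium and stroma of CD-1 mice were separated by enzyme digestion on day 4 of pseudopregnancy, and both kinds of cell were put back together as a primary co-culture. Sheets of epithelium lay on inserts coated with matrigel and the stromal cells on cover slips, overnight in a medium free of phenol red with stripped serum. The co-cultures then received estradiol (E2, the main ovarian estrogen) at 10 nM, or only its solvent, ethanol at 0.01% (vehicle), and after 2 days the layers were collected separately. The 4 groups were E2-treated epithelium, vehicle epithelium, E2-treated stroma and vehicle stroma, with 3 arrays each. Hormone-free medium, pseudopregnant donors and the presence of the other layer were common to all groups, and no fresh tissue or layer cultured alone is among the samples.

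Junctions hold epithelial cells together and seal the space between them. In an adherens junction, cadherins of neighbouring cells bind each other outside the cell and catenins couple their tails to actin, while claudins and occludin build the tight-junction strands that limit passage between cells. Desmosomes tie cadherin relatives to keratin filaments, and the Par and Crumbs complexes set the apical side of the cell. In the uterus the luminal epithelium remodels these contacts under ovarian hormones before an embryo attaches.

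Values are log2 signals of Affymetrix Mouse Gene arrays after robust multi-array averaging (RMA), so a difference of 1 is a change by a factor of 2 in signal. A log2 difference carries its limma standard error after ±, with 3 arrays a group. Adjusted p-values are two-sided, by Benjamini-Hochberg over 23410 probe sets with a gene symbol, and passed under 0.05.

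The keratins of simple epithelium matched the labels of the layers. Their mean, over Krt7, Krt8, Krt18 and Krt19, was 11.11, 11.13 and 11.18 in E2-treated and 12.02, 12.19 and 11.01 in vehicle epithelium, against 8.38, 8.37 and 8.01 in E2-treated and 7.75, 7.65 and 7.14 in vehicle stroma. Stromal genes were present in both layers: the mean of 14 stromal markers was 10.63, 10.61 and 10.59 in E2-treated and 10.12, 9.87 and 10.73 in vehicle epithelium. It was 10.78, 10.79 and 10.98 in E2-treated and 10.96, 10.92 and 11.13 in vehicle stroma. All 6 mesothelial markers measured higher in epithelium than in stroma under both treatments. Of these, 3 passed under vehicle and 4 under E2, where 7.27% and 4.43% of all probe sets tested were called higher. Whether the epithelial layer held mesothelial cells was not tested. The epithelial vehicle arrays stood apart from each other. The mean of the 40 members was 8.69, 8.84 and 8.89 in E2-treated and 9.48, 10.06 and 8.81 in vehicle epithelium, so that vehicle replicate 3 lay among the E2 arrays. Among the vehicle arrays 35 of the 40 members ran in the order replicate 2, 1, 3 from high to low, as did 18.4% of all probe sets tested. The median SD of the members was 0.167 in E2-treated and 0.735 in vehicle epithelium. In stroma it was 0.105 with E2 and 0.124 with vehicle. E2 replicates 1 and 2 lay closer together than other replicates: the SD of their difference over all probe sets tested was 0.165 in epithelium and 0.113 in stroma, against 0.273 to 0.529 for the other epithelial pairs and 0.178 to 0.248 for the other stromal pairs.

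**Figure D1:**
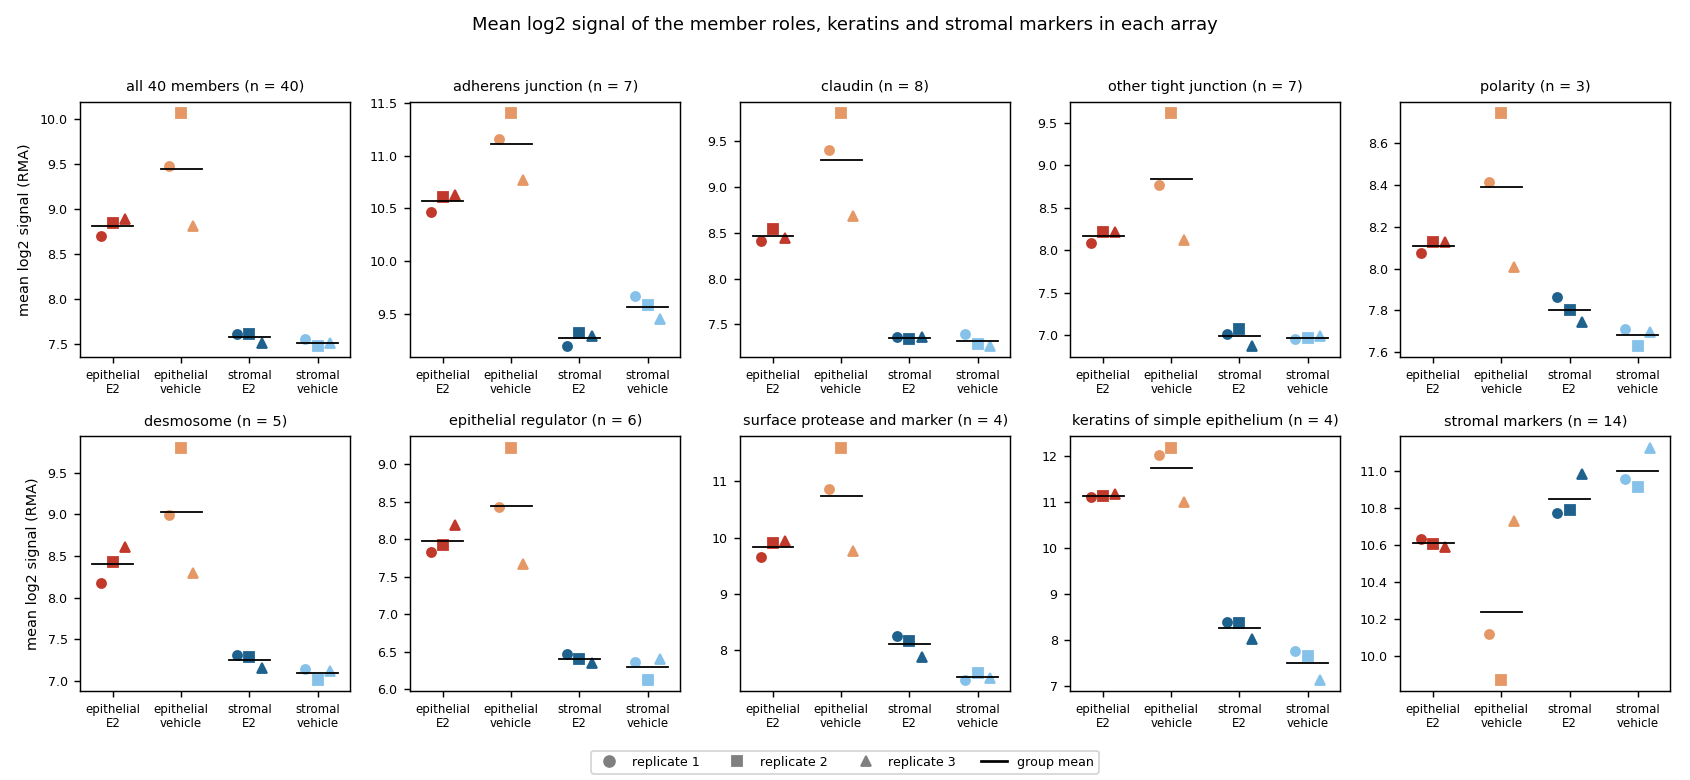
Mean log2 signal (RMA, vertical axes) in each array for the 40 members, for their 7 roles, for 4 keratins and for 14 stromal markers. Points are arrays, with a symbol for each replicate, and black lines are group means. In vehicle epithelium replicate 2 lies high and replicate 3 low for the members and keratins, and the order is turned round for the stromal markers.

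Most members were epithelial genes in these cultures. Under E2, 19 of the 40 were higher in epithelium than in stroma, 1 was lower and 20 did not pass, where 4.43% of all probe sets tested were called higher, 9.18% lower and 13.6% in either direction. Under vehicle 30 were higher, 1 was lower and 9 did not pass, against a background of 7.27% higher, 14.1% lower and 21.4% in either direction. The median difference of the members was 0.73 under E2 and 1.43 under vehicle, and 0.02 over all probe sets in both. Cldn4, Epcam, Cdh1, F11r, Cldn7, Elf3 and St14 led under vehicle, with log2 differences between 4.04 and 5.20. The arrays of the layers did not overlap for 36 members under E2, 32 of them above stroma and 4 below (17.6% and 21.3% of all probe sets), and for 34 under vehicle, 31 above and 3 below (14.6% and 21.3%). With E2 replicates 1 and 2 averaged in each layer, 9 members were higher in epithelium under E2 (1.95% of all probe sets) and 0 lower. Of the 19 calls under E2, 6 were lost in at least 1 of the 12 refits that left out 1 array. These were Crb3 in 10 refits and Dsp in 7, then Ocln (without epithelial E2 replicate 2 or 3 or any stromal E2 replicate), Esrp1 and Esrp2 (without epithelial E2 replicate 2 or any stromal E2 replicate) and Dsg2 (without stromal E2 replicate 3). In a layer measured as a whole, fewer cells of a type and less RNA per cell cannot be told apart. Both layer comparisons use arrays that also enter the comparisons of E2 with vehicle.

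**Figure D2:**
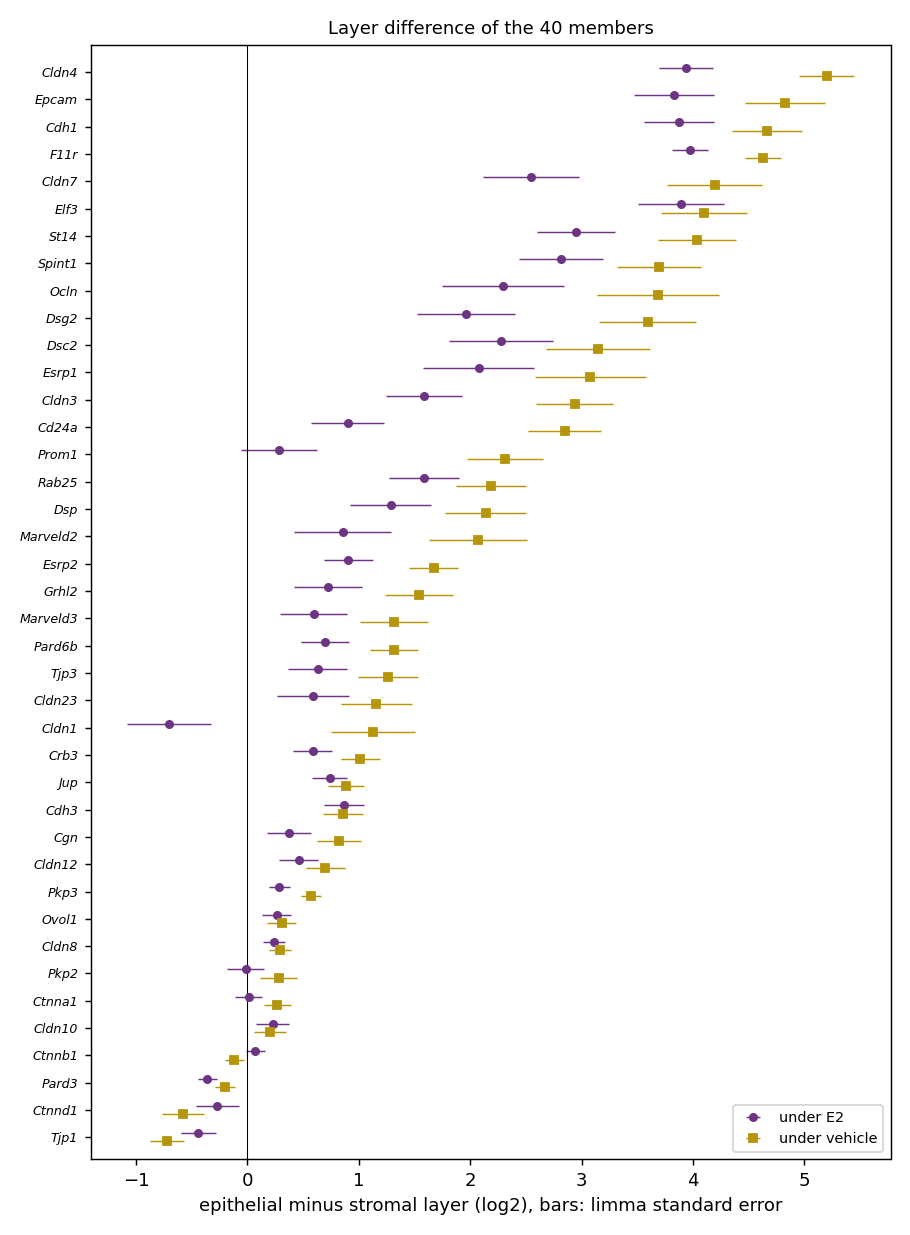
Epithelial minus stromal difference (log2, horizontal axis) of each of the 40 members under E2 (circles) and vehicle (squares), with bars of 1 limma standard error. Genes are ordered by the vehicle difference, from Cldn4 at 5.20 down to Tjp1 at -0.72, and most circles lie nearer to 0 than their squares.

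With E2, the members measured lower in epithelium, and 3 of them passed: Cldn1, Cldn4 and Cdh3 fell, 0 rose and 37 did not pass (background 1.12% lower, 1.77% higher and 2.9% in either direction). In 36 of the 40 the E2 mean was below the vehicle mean, and the median difference was -0.60, against 0.03 over all probe sets. Without adjustment 16 members had p under 0.05, as did 16.2% of all probe sets. All E2 arrays lay below all vehicle arrays for 10 members, which were Cdh3, Jup, Cldn1, Cldn3, Cldn4, Cldn7, F11r, Dsg2, Esrp2 and Prom1 (8.04% of all probe sets did so), and above them for 0 (6.95%). These counts turned on single arrays. Without vehicle replicate 3, 25 members fell (3.89% of all probe sets did) and 1634 probe sets were called in either direction, against 678 with all arrays. Without E2 replicate 1, 0 members fell, and without E2 replicate 2 or vehicle replicate 1 only 1 did. The median was -0.22 without vehicle replicate 2. With the 6 epithelial arrays alone, where the quieter stromal arrays no longer enter the spread, 0 members passed and the adjusted p of Cldn1 and Cdh3 was 0.162. With E2 replicates 1 and 2 averaged, 0 passed too.

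**Figure D3:**
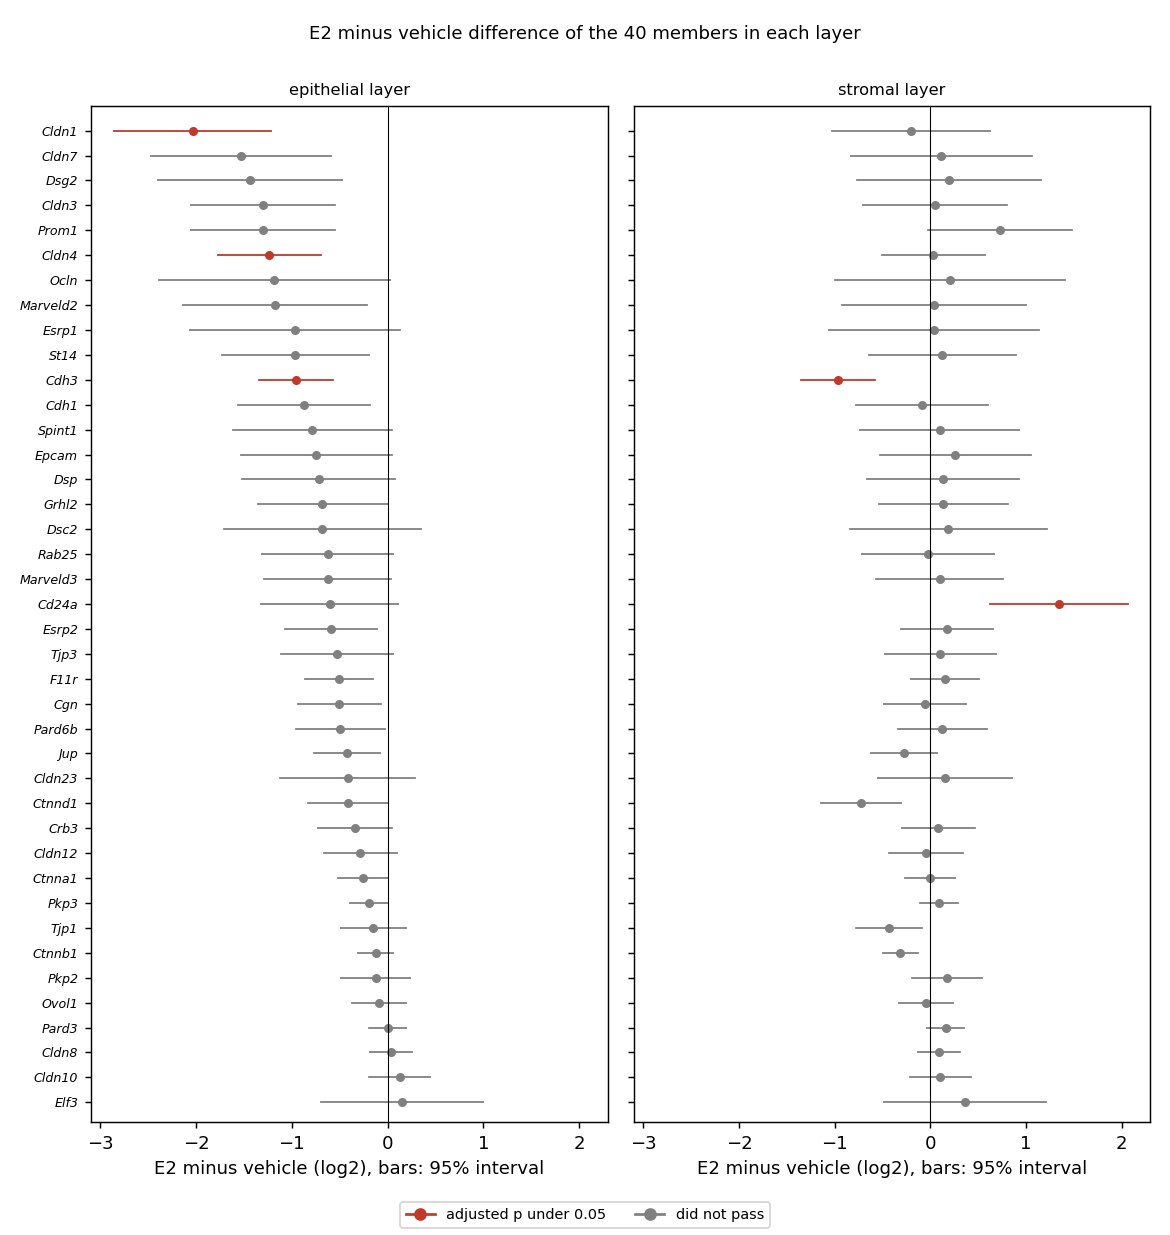
E2 minus vehicle difference (log2, horizontal axes) of the 40 members in the epithelial (left) and stromal layer (right), with bars for the 95% interval and red for an adjusted p under 0.05. On the left 36 of 40 points lie below 0 and the red ones are Cldn1, Cldn4 and Cdh3. On the right most points lie close to 0, with Cdh3 red at -0.96 and Cd24a red at 1.34.

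In stroma most members measured near their vehicle level. Cd24a rose, Cdh3 fell and 38 did not pass (background 1.52% higher, 1.98% lower and 3.5% in either direction), and the median difference was 0.10, against 0.03 over all probe sets. All E2 arrays lay above all vehicle arrays for 8 members (Cldn10, Ocln, Marveld3, Pard3, Esrp2, Elf3, Cd24a and Prom1, against 15.9% of all probe sets) and below for 5 (Cdh3, Ctnnb1, Ctnnd1, Jup and Tjp1, against 14.6%). With the 6 stromal arrays alone, Cd24a and Prom1 rose and Cdh3, Ctnnb1, Ctnnd1 and Tjp1 fell, where 3.82% of all probe sets were called higher and 5.33% lower. No member passed the test of the difference between both E2 effects, epithelial minus stromal: limma called 0 of 40 (background 0.91%, with 0.641% higher and 0.269% lower), 10 had an unadjusted p under 0.05 (10.5% of all probe sets), and array weights gave 2 higher and 10 lower (11.3% and 7.9% of all probe sets). Its median over the members was -0.64, and without epithelial vehicle replicate 3 it called 15 lower (1.39% of all probe sets).

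Adherens junction genes included members with large layer differences and members with none past the threshold. Epcam, a homophilic adhesion molecule of epithelia, measured 9.23, 9.96 and 10.02 in E2-treated and 10.64, 11.20 and 9.59 in vehicle epithelium, and 5.68, 5.99 and 6.04 in E2-treated and 5.96, 5.78 and 5.21 in vehicle stroma. Cdh1, which encodes E-cadherin, measured 10.43, 10.87 and 10.93 with E2 and 11.86, 12.24 and 10.75 with vehicle in epithelium, and 6.74, 7.09 and 6.77 with E2 and 7.06, 7.19 and 6.62 with vehicle in stroma. Every epithelial array lay far above every stromal one for both genes, by 4.83 ± 0.36 for Epcam (adjusted p = 9.62e-06) and 4.66 ± 0.31 for Cdh1 (adjusted p = 5.86e-06) under vehicle. With E2 the epithelial arrays overlapped those with vehicle through vehicle replicate 3, and the E2 differences of Epcam (-0.74 ± 0.36, adjusted p = 0.342) and Cdh1 (-0.87 ± 0.31, adjusted p = 0.183) did not pass.

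Cdh3, which encodes P-cadherin, fell in both layers. It measured 10.39, 10.13 and 10.67 with E2 and 11.16, 11.18 and 11.71 with vehicle in epithelium, and vehicle replicate 3 was here the highest array. In stroma it measured 9.41, 9.39 and 9.79 with E2 and 10.43, 10.47 and 10.58 with vehicle. The E2 arrays lay below the vehicle arrays in each layer, with differences of -0.95 ± 0.18 (adjusted p = 0.016) in epithelium and -0.96 ± 0.18 (adjusted p = 0.0111) in stroma, signals 1.94-fold and 1.95-fold lower. The difference between these effects was 0.01 ± 0.25 (95% interval -0.54 to 0.56). The epithelial call was lost without epithelial E2 replicate 1 (adjusted p = 0.0719) or 2 (0.0809) and with the epithelial arrays alone (0.162). The stromal call was lost without stromal E2 replicate 1 (adjusted p = 0.0582), stromal E2 replicate 2 (0.0618) or stromal vehicle replicate 3 (0.0552). With E2 replicates 1 and 2 averaged neither passed (0.13 in epithelium and 0.0808 in stroma). Cdh3 was higher in epithelium than in stroma by 0.87 under E2 and 0.86 under vehicle.

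Ctnna1, Ctnnb1 and Ctnnd1 encode catenins, which bind cadherin tails, and did not differ between the layers past the threshold under E2 or vehicle. Ctnnd1 encodes the catenin that keeps cadherins at the membrane. It measured 10.78, 10.83 and 10.51 with E2 and 11.07, 11.62 and 10.67 with vehicle in epithelium, and 10.88, 10.95 and 11.09 with E2 and 11.80, 11.66 and 11.64 with vehicle in stroma. Its stromal groups did not overlap (-0.72 ± 0.19, adjusted p = 0.071), and with the stromal arrays alone it passed (adjusted p = 0.00152). Ctnnb1, which encodes beta-catenin, measured 11.34, 11.39 and 11.43 with E2 and 11.74, 11.63 and 11.73 with vehicle in stroma, a difference of -0.31 ± 0.08, adjusted p = 0.0746 (0.0223 with the stromal arrays alone). In epithelium Ctnnb1 measured 11.43, 11.51 and 11.43 with E2 and 11.68, 11.44 and 11.62 with vehicle, and the groups overlapped. Ctnna1, the actin-linking alpha-catenin, differed between the layers by 0.27 under vehicle and did not pass. Jup, the plakoglobin that adherens junctions share with desmosomes, was higher in epithelium by 0.89 ± 0.16 under vehicle (adjusted p = 0.00229), and its E2 arrays lay below its vehicle arrays in both layers (-0.42 and -0.27, neither past the threshold). Values of the catenins by array are given because of their stromal pattern and were chosen after it was seen.

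A claudin had the largest E2 difference of the set. Cldn1, a strand-forming claudin of the barrier-sealing kind, measured 9.86, 10.26 and 9.45 with E2 and 12.16, 12.63 and 10.89 with vehicle in epithelium. The groups did not overlap, and the difference was -2.04 ± 0.37, adjusted p = 0.0156, a signal 4.1-fold lower. In stroma Cldn1 measured 10.39, 10.37 and 10.92 with E2 and 11.08, 10.71 and 10.51 with vehicle, and the groups overlapped. It was no layer marker: under E2 its 3 epithelial arrays lay below its 3 stromal arrays (-0.71 ± 0.37, adjusted p = 0.252), and under vehicle it was 1.13 ± 0.37 above stroma (adjusted p = 0.053). Its call was lost without E2 replicate 1 or vehicle replicate 1 of the epithelium, and the adjusted p ranged from 0.00048 to 0.427 over 25 alternatives.

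Cldn4, a claudin of simple epithelia, had the largest layer difference under vehicle (5.20), while under E2 F11r (3.97) lay slightly above it (3.94). It measured 11.02, 11.22 and 11.17 with E2 and 12.62, 12.88 and 11.62 with vehicle in epithelium, against 7.24, 7.10 and 7.26 with E2 and 7.28, 7.06 and 7.17 with vehicle in stroma. In epithelium the E2 arrays lay close together and below each vehicle array, with a difference of -1.24 ± 0.25 (adjusted p = 0.0224), a signal 2.35-fold lower, while in stroma the groups overlapped. This call was lost without epithelial E2 replicate 1 or 2 or vehicle replicate 1. Cldn3, a related claudin, measured 9.51, 9.87 and 9.56 with E2 and 11.19, 11.76 and 9.90 with vehicle in epithelium, and 8.10, 8.04 and 8.05 with E2 and 8.08, 7.90 and 8.06 with vehicle in stroma. Its epithelial groups stood apart by a narrow gap, and the difference did not pass (-1.30 ± 0.34, adjusted p = 0.0696). Cldn7, which is also found along the lateral membrane, measured 8.95, 9.32 and 9.12 with E2 and 10.87, 11.76 and 9.36 with vehicle in epithelium, and 6.62, 6.51 and 6.62 with E2 and 6.62, 6.42 and 6.36 with vehicle in stroma. Vehicle replicate 3 of Cldn7 lay barely above the E2 arrays and the other vehicle arrays far above them, with a group difference of -1.53 ± 0.43, adjusted p = 0.0866.

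The remaining claudins carried little of the pattern. Cldn8 (0.04) and Cldn10 (0.13) showed E2 differences near 0 in epithelium, and their means lay below the array medians in every group, Cldn8 between 4.49 and 4.82. Cldn12 (-0.28) and Cldn23 (-0.42) measured lower with E2 but did not pass, and both were higher in epithelium than in stroma under vehicle (0.70 and 1.16). These layer calls were lost without stromal vehicle replicate 1 or 3, for Cldn23 also without replicate 2, and for both with the vehicle arrays alone. In stroma the E2 differences of all 8 claudins lay between -0.20 and 0.15, and none passed.

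**Figure D4:**
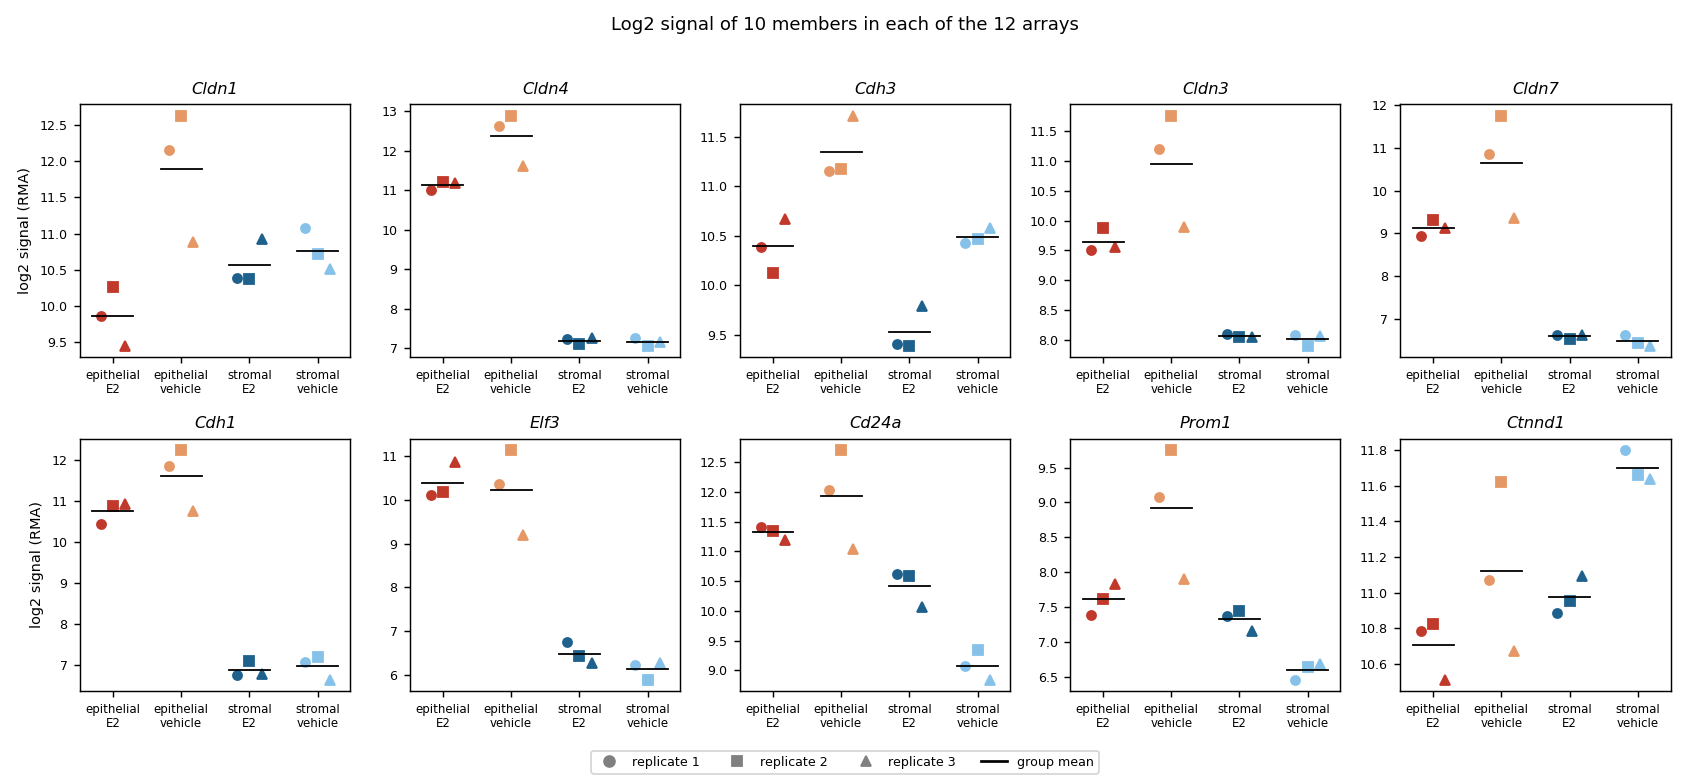
Log2 signal (RMA, vertical axes) of 10 members in each of the 12 arrays, with a symbol for each replicate and a black line for each group mean. Cldn1 and Cldn4 are lower with E2 in epithelium, Cdh3 is lower with E2 in both layers, and Cd24a and Prom1 are higher with E2 in stroma and lower on average in epithelium.

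The sequences before the transcription starts of the 2 claudins that fell are shown for their motifs. Added to them are 3 of the members higher in epithelium with more than 1 match to an E-box, Cldn7, Crb3 and Epcam. Ocln, Pard6b and Rab25 also had more than 1 match and were higher in epithelium under vehicle, and are not shown. These 3 sequences were picked for holding the motif and do not show how common it is. RefSeq promoters (GRCm38.p6) were at hand for 24 of the 40 genes, and the 250 bases before each start were searched on both strands for 3 patterns. These were CACCTG, the E-box that Snail and ZEB repressors of junction genes are known to bind, AACCGGTT, a grainyhead site of the family of Grhl2, and a full estrogen response element, GGTCA and TGACC with 3 bases between them. Capitals mark CACCTG or its complement CAGGTG, and each run reads 5′ to 3′ toward the start of its gene.
Cldn1, chr16:26371840-26372089, minus strand: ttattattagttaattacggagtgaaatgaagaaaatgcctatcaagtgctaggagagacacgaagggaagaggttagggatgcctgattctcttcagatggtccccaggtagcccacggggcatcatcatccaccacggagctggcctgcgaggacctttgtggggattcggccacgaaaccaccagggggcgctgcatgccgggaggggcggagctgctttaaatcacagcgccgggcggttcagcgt
Cldn4, chr5:134946935-134947184, minus strand: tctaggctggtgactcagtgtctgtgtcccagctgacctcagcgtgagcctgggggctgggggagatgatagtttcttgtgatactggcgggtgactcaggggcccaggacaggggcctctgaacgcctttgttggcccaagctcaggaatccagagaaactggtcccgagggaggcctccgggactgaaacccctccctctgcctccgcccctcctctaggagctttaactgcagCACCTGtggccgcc
Cldn7, chr11:69965171-69965420, plus strand: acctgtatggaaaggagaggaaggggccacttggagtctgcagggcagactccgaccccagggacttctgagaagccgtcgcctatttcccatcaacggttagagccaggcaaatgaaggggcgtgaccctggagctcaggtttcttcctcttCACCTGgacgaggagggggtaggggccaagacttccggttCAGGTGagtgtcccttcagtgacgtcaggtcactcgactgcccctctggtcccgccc
Crb3, chr17:57061951-57062200, plus strand: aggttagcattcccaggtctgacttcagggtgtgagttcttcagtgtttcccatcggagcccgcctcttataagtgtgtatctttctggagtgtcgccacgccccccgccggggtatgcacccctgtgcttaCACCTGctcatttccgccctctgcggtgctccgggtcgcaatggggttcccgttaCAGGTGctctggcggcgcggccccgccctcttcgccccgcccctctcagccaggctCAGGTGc
Epcam, chr17:87635729-87635978, plus strand: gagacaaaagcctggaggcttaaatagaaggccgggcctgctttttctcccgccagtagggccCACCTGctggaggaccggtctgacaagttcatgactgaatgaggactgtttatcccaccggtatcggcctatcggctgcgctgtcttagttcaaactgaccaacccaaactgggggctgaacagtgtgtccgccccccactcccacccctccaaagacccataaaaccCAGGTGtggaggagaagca

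CACCTG stood in at least 1 promoter of 12 of the 24 genes (50%), namely Cldn4, Cldn7, Crb3, Elf3, Epcam, F11r, Ocln, Pard3, Pard6b, Prom1, Rab25 and Tjp3, and in 19.4% of all 27025 genes of the promoter table. Cldn1 had none in its window, Cldn4 had 1 that began 14 bases before the start, and Crb3 had 3. Cldn7 has a second listed start, whose window held none. The grainyhead site was in 0 of 24 (0.137% of all genes) and the estrogen response element in 0 of 24 (0.0666%). Of the 3 genes that fell in epithelium, Cldn4 had the E-box, Cldn1 did not, and Cdh3 had no entry. A match of letters is no measured binding, and 16 members were not searched.

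Other tight junction genes split between membrane proteins and scaffolds. F11r encodes a junctional adhesion molecule of the immunoglobulin family. It measured 11.21, 11.05 and 11.15 with E2 and 11.64, 11.83 and 11.45 with vehicle in epithelium, against 7.27, 7.41 and 6.82 with E2 and 6.79, 7.23 and 7.02 with vehicle in stroma. Its layer difference was 4.63 ± 0.16, adjusted p = 1.63e-07 under vehicle, and its epithelial E2 arrays lay below the vehicle arrays without passing (-0.51 ± 0.16, adjusted p = 0.133). Ocln, which encodes occludin, measured 7.69, 8.15 and 8.32 with E2 and 9.22, 10.79 and 7.71 with vehicle in epithelium, and 5.80, 5.74 and 5.74 with E2 and 5.73, 5.52 and 5.41 with vehicle in stroma. Vehicle replicate 2 of Ocln stood far above replicate 3, which lay among the E2 arrays, and the E2 difference did not pass (-1.18 ± 0.55, adjusted p = 0.32).

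Tjp1, which encodes a cytoplasmic zonula occludens scaffold found in many cell types, was the member called lower in epithelium under vehicle. It measured 9.75, 9.71 and 9.26 with E2 and 9.57, 10.07 and 9.53 with vehicle in epithelium, and 9.98, 10.06 and 10.01 with E2 and 10.49, 10.46 and 10.40 with vehicle in stroma. Every epithelial array lay below every stromal array of the same treatment. The layer difference was -0.44 ± 0.16 under E2 (adjusted p = 0.0906) and -0.72 ± 0.16 under vehicle (adjusted p = 0.00677). In stroma its E2 arrays lay below its vehicle arrays (-0.43 ± 0.16, adjusted p = 0.214), which passed with the stromal arrays alone (0.00438). Marveld2, the tricellulin of corners where several cells meet, differed between the layers by 0.85 ± 0.44 under E2 and 2.07 ± 0.44 under vehicle. Its relative Marveld3 differed by 0.59 ± 0.30 under E2 and 1.32 ± 0.30 under vehicle. The scaffold Tjp3 gave 0.63 ± 0.27 under E2 and 1.26 ± 0.27 under vehicle, and Cgn, or cingulin, 0.37 ± 0.20 under E2 and 0.82 ± 0.20 under vehicle. None of these 4 passed under E2 and all passed under vehicle, while the test of the change between both treatments passed for none of them (adjusted p = 0.556 to 0.714).

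Of the polarity genes, the Par complex members measured on opposite sides of their stromal level, but no single comparison called both. Of this pair only Pard3 passed under E2 and only Pard6b under vehicle. Pard6b measured 8.31, 8.43 and 8.42 with E2 and 8.92, 9.42 and 8.29 with vehicle in epithelium, against 7.76, 7.72 and 7.58 with E2 and 7.57, 7.47 and 7.65 with vehicle in stroma. It was higher in epithelium under vehicle (1.32 ± 0.21, adjusted p = 0.00125). Pard3, the scaffold that the complex assembles on, measured 8.60, 8.64 and 8.55 with E2 and 8.58, 8.72 and 8.48 with vehicle in epithelium, and 8.94, 8.94 and 8.98 with E2 and 8.72, 8.93 and 8.73 with vehicle in stroma. Under E2 it was lower in epithelium by a small amount with little spread (-0.36 ± 0.09, adjusted p = 0.0191), and its E2 difference in epithelium was 0.00 ± 0.09. That layer call was lost when any one of the 3 stromal E2 arrays was left out. Crb3, a small Crumbs protein of the apical membrane, measured 7.32, 7.32 and 7.42 with E2 and 7.74, 8.08 and 7.25 with vehicle in epithelium, against 6.88, 6.74 and 6.67 with E2 and 6.84, 6.49 and 6.71 with vehicle in stroma. Its layer difference passed under both treatments (0.59 under E2 and 1.01 under vehicle) and its E2 difference in neither layer. The layer call under E2 (adjusted p = 0.0477) held without epithelial vehicle replicate 2 or 3 and was lost in the other 10 refits that left out 1 array, with the replicate block, and after quantile normalization or median centring (adjusted p up to 0.174).

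Of the 5 desmosome genes 3 were higher in epithelium under E2 and 4 under vehicle (4.43% and 7.27% of all probe sets). Dsg2, a desmosomal cadherin, measured 7.43, 8.04 and 8.05 with E2 and 9.20, 10.48 and 8.14 with vehicle in epithelium, against 6.10, 5.93 and 5.61 with E2 and 5.84, 5.54 and 5.66 with vehicle in stroma. Its epithelial groups did not overlap, but the vehicle arrays spread widely (-1.43 ± 0.44, adjusted p = 0.116). Dsc2, its partner cadherin, measured 7.53, 8.05 and 8.44 with E2 and 8.79, 9.88 and 7.38 with vehicle in epithelium, against 5.82, 5.72 and 5.65 with E2 and 5.45, 5.41 and 5.76 with vehicle in stroma. Here vehicle replicate 3 was the lowest epithelial array, and the E2 difference did not pass (-0.68 ± 0.47, adjusted p = 0.559). Dsp, the desmoplakin that anchors keratin filaments, was higher in epithelium by 1.29 ± 0.36 under E2 and 2.14 ± 0.36 under vehicle, both past the threshold. The call under E2 (adjusted p = 0.0373) was lost without epithelial E2 replicate 2 or 3, any stromal E2 replicate, or stromal vehicle replicate 1 or 3, and with the replicate block (adjusted p up to 0.131 over the alternatives). The plakophilin Pkp3 passed under vehicle (0.57 ± 0.09) and Pkp2 did not (0.28 ± 0.16), and neither changed with E2 past the threshold in either layer.

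Of the 6 regulators of epithelial identity 4 were higher in epithelium under E2 and 5 under vehicle (4.43% and 7.27% of all probe sets). Elf3 was the one of them whose E2 mean in epithelium was not below its vehicle mean. Elf3, an ETS-family transcription factor of epithelia, measured 10.11, 10.18 and 10.85 with E2 and 10.35, 11.13 and 9.21 with vehicle in epithelium, against 6.76, 6.43 and 6.28 with E2 and 6.23, 5.89 and 6.27 with vehicle in stroma. Its E2 difference was 0.15 ± 0.38, adjusted p = 0.909 in epithelium and 0.36 ± 0.38, adjusted p = 0.873 in stroma, where the E2 arrays lay above the vehicle arrays. Grhl2, a grainyhead factor known to drive junction genes in epithelia, measured 6.24, 6.45 and 6.93 with E2 and 7.02, 8.08 and 6.56 with vehicle in epithelium, and 5.76, 5.76 and 5.94 with E2 and 5.73, 5.54 and 5.78 with vehicle in stroma. Its layer difference did not pass under E2 (0.72 ± 0.31, adjusted p = 0.156) and passed under vehicle (1.54 ± 0.31, adjusted p = 0.00431).

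Esrp1 and Esrp2 encode splicing regulators of epithelial isoforms. Esrp1 measured 7.52, 7.81 and 7.73 with E2 and 8.42, 10.18 and 7.36 with vehicle in epithelium, against 5.61, 5.69 and 5.53 with E2 and 5.52, 5.54 and 5.66 with vehicle in stroma. Vehicle replicate 2 of Esrp1 stood far above the other epithelial arrays and replicate 3 below all of them (-0.97 ± 0.50, adjusted p = 0.38). Esrp2 measured 8.42, 8.41 and 8.35 with E2 and 8.92, 9.61 and 8.44 with vehicle in epithelium, and 7.46, 7.56 and 7.45 with E2 and 7.37, 7.14 and 7.43 with vehicle in stroma. Its E2 arrays lay below the vehicle arrays in epithelium and above them in stroma, in each case by a small margin. Rab25, a small GTPase of apical recycling, was higher in epithelium by 1.59 ± 0.31 under E2 and 2.19 ± 0.31 under vehicle. Ovol1, a zinc-finger factor, differed between the layers by 0.26 under E2 and 0.31 under vehicle, and passed in no comparison.

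The surface proteins held the one member that rose. Cd24a, a heavily glycosylated anchored surface protein, measured 10.62, 10.59 and 10.06 with E2 and 9.07, 9.33 and 8.84 with vehicle in stroma. All 3 E2 arrays lay well above the vehicle arrays, by 1.34 ± 0.33 (adjusted p = 0.0483), a signal 2.54-fold higher. In epithelium it measured 11.41, 11.35 and 11.20 with E2 and 12.03, 12.71 and 11.05 with vehicle, and the groups overlapped (-0.61 ± 0.33, adjusted p = 0.409). The call in stroma was lost in 10 of the 12 refits that left out 1 array of either layer (adjusted p up to 0.193), and held without epithelial vehicle replicate 2 or 3. It was also lost with E2 replicates 1 and 2 averaged (0.267). Under E2 the layers no longer differed past the threshold (0.90 ± 0.33, adjusted p = 0.101), whereas under vehicle Cd24a was 2.85 ± 0.33 higher in epithelium, and the difference between the E2 effects was -1.95 ± 0.46, adjusted p = 0.0881.

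Prom1, which encodes prominin of apical membrane protrusions, showed the same directions. In epithelium it measured 7.39, 7.62 and 7.83 with E2 and 9.08, 9.75 and 7.91 with vehicle, and in stroma 7.37, 7.45 and 7.17 with E2 and 6.46, 6.65 and 6.69 with vehicle. The E2 arrays lay below the vehicle arrays in epithelium (-1.30 ± 0.34, adjusted p = 0.0694) and above them in stroma (0.73 ± 0.34, adjusted p = 0.422, and 0.0033 with the stromal arrays alone). The difference between the effects was -2.03 ± 0.48, adjusted p = 0.0886. The keratins also measured higher in these stromal arrays, with a mean of 8.38, 8.37 and 8.01 with E2 and 7.75, 7.65 and 7.14 with vehicle, and 3 of 4 above their vehicle mean. Relative to that mean, stromal Prom1 averaged -0.93 with E2 and -0.91 with vehicle and the groups overlapped. Stromal Cd24a averaged 2.17 with E2 and 1.57 with vehicle, and its E2 arrays still lay above its vehicle arrays. The part of the keratins' shift in these differences was not tested further. Spint1 and St14, a membrane protease inhibitor and the matriptase it acts on, ran together. Spint1 measured 10.02, 10.35 and 10.12 with E2 and 11.06, 11.94 and 9.85 with vehicle in epithelium, against 7.52, 7.43 and 7.11 with E2 and 7.15, 7.25 and 7.37 with vehicle in stroma. St14 measured 9.77, 10.31 and 10.61 with E2 and 11.32, 12.01 and 10.25 with vehicle in epithelium, against 7.49, 7.21 and 7.15 with E2 and 7.19, 7.15 and 7.13 with vehicle in stroma. Both overlapped between the treatments in epithelium through vehicle replicate 3, and neither E2 difference passed (-0.78 ± 0.38, adjusted p = 0.343 and -0.96 ± 0.35, adjusted p = 0.187).

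In epithelium 1 gene each of the leukocyte, mesothelial, smooth muscle and endothelial marker lists passed the E2 test. Of all probe sets 2.9% were called in either direction. The keratin mean was 0.60 lower with E2 than with vehicle, with all 4 keratins measuring lower and 0 past the threshold. Of 14 stromal markers 10 measured higher and 0 passed, and of 11 leukocyte markers 10 measured higher, with Csf1r past the threshold (1.01 ± 0.14). The leukocyte mean was 9.34, 9.46 and 8.65 with E2 and 8.75, 8.42 and 8.79 with vehicle, and none of the markers has a value of 0 on this scale. Pdgfra, a receptor of uterine stroma and 1 of these 14 stromal markers, did not pass. In epithelium it measured 11.77, 11.94 and 11.71 with E2 and 10.46, 9.82 and 11.76 with vehicle, its highest vehicle value in replicate 3. It is named outside the rule for list genes and does not stand for its list. Of the 14 stromal markers 4 measured lower, and their median difference was 0.17. The mesothelial list had Msln lower (-1.32 ± 0.19), the smooth muscle list Actg2 lower (-1.02 ± 0.21) and the endothelial list Kdr higher (1.33 ± 0.26), as the only calls of 6, 8 and 8 genes. The part of other cells in the members' differences was not tested beyond the following measures.

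Relative to the keratins of the same array, 6 members, 4 of them claudins, were lower in every E2 array than in every vehicle array. The remaining claudins averaged higher with E2 by this measure: Cldn8 (0.64), Cldn10 (0.73), Cldn12 (0.32) and Cldn23 (0.18). The subtraction moves all genes of an array by the same amount, so the gap between the members' median and that of all probe sets stays as it was. Below the vehicle arrays lay all E2 arrays of 6 members, Cldn1, Cldn3, Cldn4, Cldn7, Dsg2 and Prom1 (0.444% of all probe sets), and above them those of Elf3 (6.12%). The subtraction itself put the median E2 difference at 0.63 over all probe sets and at 0.00 over the members. Before it 8.04% of all probe sets lay below, so the 0.444% cannot serve as a background for the 6 members. Cldn4 minus the keratin mean was -0.09, 0.09 and -0.01 with E2 and 0.60, 0.70 and 0.61 with vehicle, so that the 3 vehicle arrays came together. For Cldn1 it was -1.24, -0.87 and -1.73 with E2 and 0.14, 0.44 and -0.11 with vehicle. For Cdh3 it was -0.71, -1.00 and -0.51 with E2 and -0.86, -1.01 and 0.71 with vehicle, and the groups overlapped. Fitted on the 6 epithelial arrays with the keratin mean as a covariate, 0 members and 6 probe sets in all passed. The differences in that fit were -1.22 for Cldn1, -0.61 for Cldn4, -0.42 for Cldn3 and Cldn7, -1.23 for Cdh3 and 1.05 for Elf3. Their median was -0.02 over the members and -0.01 over all probe sets.

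**Figure D5:**
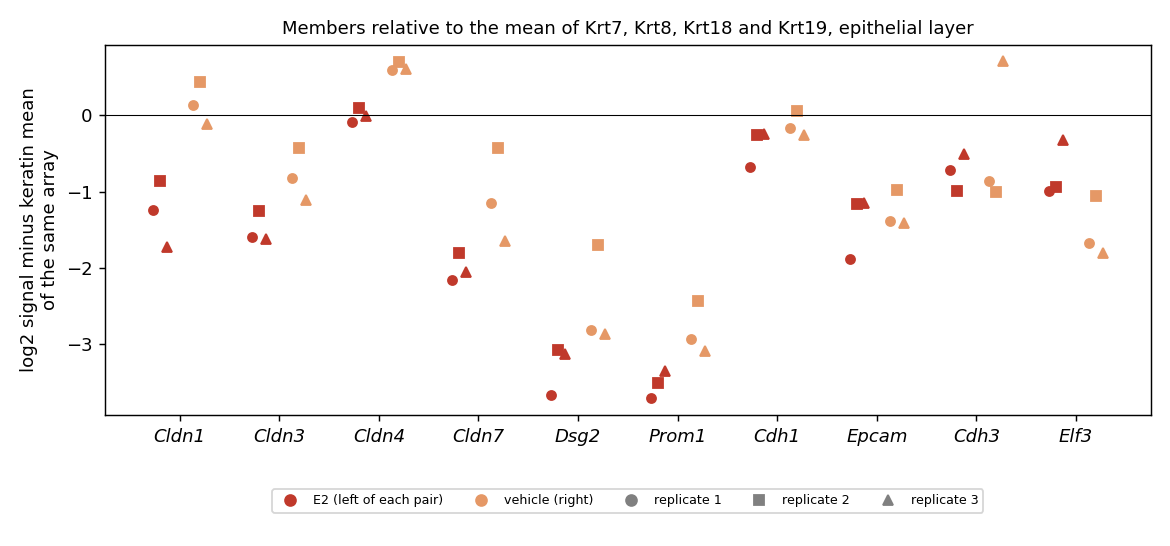
Log2 signal minus the mean of 4 keratins of the same array (vertical axis) for 10 members in E2-treated (left of each pair) and vehicle epithelium (right), 3 arrays each with a symbol for each replicate. The E2 arrays lie below the vehicle arrays for Cldn1, Cldn3, Cldn4, Cldn7, Dsg2 and Prom1 and above them for Elf3, and they overlap for Cdh1, Epcam and Cdh3.

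A few other genes of the same structures passed, where 1.12% of all probe sets were called lower and 1.77% higher with E2 in epithelium. In epithelium with E2, 1 of 17 further cadherin, nectin and adherens genes fell, the nectin Nectin2 (-0.59 ± 0.13, adjusted p = 0.0356), and 1 of 10 further desmosome and plakin genes, the plakophilin Pkp1 (-1.14 ± 0.20, adjusted p = 0.0114). Of 8 hemidesmosome genes Itgb4, the integrin subunit that binds laminin at the base of the cell, fell (-1.72 ± 0.38, adjusted p = 0.0345), and all 8 measured lower. Of 8 gap junction genes Gja1, a connexin, rose (1.22 ± 0.14, adjusted p = 0.00114). It measured 12.86, 12.88 and 12.72 with E2 and 11.31, 11.90 and 11.58 with vehicle in epithelium, and its stromal difference was -0.02 ± 0.14. The difference between these effects passed (1.24 ± 0.20, adjusted p = 0.0146). Ezr, the ezrin that joins apical membrane to actin, rose in epithelium (0.44 ± 0.09, adjusted p = 0.024) and stroma (0.63 ± 0.09, adjusted p = 0.00224), the only call among 22 further polarity genes. None of 13 further claudins, 15 further tight junction genes and 17 further regulators and proteases passed in epithelium. Among 8 transcription factors known to repress junction genes, Twist1 (0.78 ± 0.15, adjusted p = 0.0172) and Tcf4 (0.95 ± 0.19, adjusted p = 0.0243) rose and 7 measured higher (1.77% of all probe sets were called higher). The mean of the 8 was 9.11, 9.08 and 8.57 with E2 and 8.53, 8.17 and 8.69 with vehicle, and the groups overlapped. Under vehicle 6 of the 8 were lower in epithelium than in stroma. Their part in the members' differences was not tested.

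In stroma other genes of these lists passed beside Ezr, where 1.52% of all probe sets were called higher and 1.98% lower. The tight junction genes Cxadr (0.80 ± 0.15) and Amot (1.38 ± 0.30), the nectin Nectin1 (0.49 ± 0.10), the laminin-binding integrin Itga6 (1.69 ± 0.39) and the keratin Krt7 (1.32 ± 0.28) rose. The cadherins Cdh11 (-0.98 ± 0.10) and Cdh5 (-1.50 ± 0.26), the latter also an endothelial marker, and the linker Plec (-0.62 ± 0.13) fell, in the same layer as Cdh3. Krt7 measured 8.86, 8.73 and 8.52 with E2 and 7.24, 7.76 and 7.17 with vehicle in stroma, groups far apart. The effects of E2 in the 2 layers differed past the threshold for Krt7 (-1.93 ± 0.39, adjusted p = 0.0495), Cdh11 (0.85 ± 0.14, adjusted p = 0.0174) and Nectin1 (-0.80 ± 0.14, adjusted p = 0.0249), and for the marker genes Cnn1 (-0.73 ± 0.11) and Msln (-1.40 ± 0.26). No further claudin, desmosome, gap junction, regulator or repressor gene passed in stroma, and of the marker lists the smooth muscle genes Cnn1 (0.60 ± 0.08) and Lmod1 (0.42 ± 0.10) rose. The endothelial list had Cdh5 as its 1 call.

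Of 19898 genes outside the set, those whose values over the 12 arrays lay closest to the mean of the members were Tmem184a and Erbb3 (Pearson r = 0.996 each), Ildr1, Fermt1, Lsr and Lad1 (r = 0.994 for Lad1). These correlations describe 12 arrays in 4 groups, where the layer sets most of the range, and no test is attached to them.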

How the data were processed

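The log2 signals were used as the authors deposited them, from 12 Affymetrix Mouse Gene 1.0 ST arrays. They had been made with RMA, per the submitters' processing notes, and its version and settings are not given in the sources used here. The medians were 7.38 to 7.43 over the tested probe sets. Symbols came from the platform annotation: 23410 of 35556 probe sets had at least 1, 21789 exactly 1, 1621 several and 12146 none. The identifiers of all 40 members were in the RefSeq table (GRCm38.p6). limma 3.58.1 (R 4.3.3) was fitted to all 12 arrays in 4 groups (residual degrees of freedom 8, prior 3.27). The number of arrays limits the precision, since an exact test of 3 against 3 could not go below 0.1. No label states that the arrays of a group stand for different animals or cultures, so the p-values reflect the spread among these arrays alone, which may be technical.

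The members, 15 lists of related genes and cell type markers (166 of 185 other genes measured) and the tests were chosen with earlier results of these data known. Every member is named. Values of every array are given for members past the threshold with E2, for the 2 of each role with the largest layer difference under vehicle, for those lower in epithelium, and for Cdh1, Epcam, Cldn3, Cldn4, Tjp1 and Grhl2. Prom1, Esrp2 and the catenins were added after their values were seen. Of the other lists, genes past the threshold with E2 are named, at most 4 a list by p, and outside the lists the 6 genes closest to the members' mean.

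Replicate numbers come from the sample titles. Residuals of vehicle arrays with the same number correlated between the layers (r = 0.17, 0.14 and 0.13), each array best with its own number. No label states a pairing, and 3 arrays a group are too few to establish one from such values. In the other pairings the own number was not the best match of every array. These were E2 with vehicle in epithelium (r = -0.42, 0.27 and 0.27) and in stroma (0.20, -0.04 and 0.03) and the layers under E2 (-0.31, 0.23 and -0.06). Tried as alternatives were adjustment over all probe sets of the table, removal of dim probe sets, other scalings, a variance trend, array weights, other thresholds, the replicate block, only the groups compared, a keratin covariate and leaving out each array. The average of E2 replicates 1 and 2 was chosen after seeing the data. Simulated arrays were also run through the same steps. No result of that run is given here. Nothing is concluded from it about calls that rest on the widely spread vehicle epithelium, where the median SD of the members was 0.735.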

Additional observations from a re-analysis of the deposited data

Results flagged for a closer look

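Esrp2 and Prom1 were singled out because all 3 E2 arrays lay below all 3 vehicle arrays in epithelium and above them in stroma. Of all probe sets 8.04% lay below in epithelium and 15.9% above in stroma, and the share with both was not counted. The gaps of Esrp2 were narrow, 8.42 with E2 against 8.44 with vehicle in epithelium and 7.45 against 7.43 in stroma. For Esrp2 the difference between both E2 effects, epithelial minus stromal, was -0.77 on the log2 scale and did not pass (limma, adjusted p = 0.382). For Prom1 it was -2.03 and did not pass either (adjusted p = 0.0886). No group of 3 arrays was searched for outlying arrays.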

How the results depend on the processing

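Over the alternatives, 4411 of 4770 values of single members kept their direction and their side of the threshold, 90 that passed in neither setting changed sign, 159 passed only under the alternative, 110 no longer passed, and 0 were reversed among called values. With the keratin covariate such sign changes included Epcam (0.02, against -0.74), Ocln (0.16, against -1.18), Dsc2 (0.46, against -0.68) and Spint1 (0.15, against -0.78). Most of the 4770 values had not passed in the main fit, so the 110 losses fell on the smaller part that had. The epithelial E2 calls were lost in 6 of 25 alternatives for Cldn1 and Cdh3 and in 7 for Cldn4. In stroma Cdh3 was lost in 5 of 24 and Cd24a in 14. With all probe sets of the table adjusted together, 0 members were higher in stroma with E2 and the difference of the effects had 128 calls. The filter on low values left 34 members, with 5 lower in epithelium, 2 lower in stroma, 2 lower than stroma under vehicle, and median layer differences of 0.88 under E2 and 2.10 under vehicle. Quantile normalization gave 1044 calls in epithelium and 2 members lower in stroma. Median centring gave 0 members higher in stroma and 2 lower than stroma under vehicle, and the variance trend also 2. Array weights gave 16 members lower in epithelium (4706 calls), 4 higher and 4 lower in stroma (4503), 2 higher and 10 lower for the difference of the effects (4488), 31 higher and 2 lower than stroma under E2 (11798), and 3 lower under vehicle (9867, median 1.21). At an adjusted p under 0.01, 0 members passed in epithelium (210 calls), 0 and 0 in stroma (361) and 0 were lower than stroma under E2 (1652), with 46 calls for the difference of the effects and 2709 for the layers under vehicle. Under 0.10, 6 members were lower in epithelium (1289 calls), 3 in stroma, 2 for the difference of the effects (404), and 2 lower than stroma under E2 and 2 under vehicle. With the replicate number as a block, 438 calls were left in epithelium against 678, and 126 for the difference of the effects against 213. In stroma 2 members were lower, Ctnnd1 joining with an adjusted p of 0.0437. The block changed no other count of calls by over 1.5 times, with 31 members higher than stroma under vehicle. With only the arrays compared, 0 members were lower in epithelium (49 calls), and 2 were higher and 4 lower in stroma (2142). With the keratin covariate 0 were lower in epithelium (6 calls). With E2 replicates 1 and 2 averaged, a choice made after seeing the data, 0 were lower in epithelium (89 calls), 0 and 0 passed in stroma (303), 12 probe sets passed for the difference of the effects, and 9 members were higher and 0 lower than stroma under E2 (1420).

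Leaving out 1 array at a time gave 0 to 25 members lower in epithelium (219 to 1634 calls, median -0.85 to -0.22) and 0 higher. In stroma it gave 0 to 2 higher and 0 to 3 lower (413 to 1342 calls, median 0.06 to 0.12). The difference of the effects had 0 higher and 0 to 15 lower (81 to 725 calls, median -1.00 to -0.28). The layers gave 13 to 28 members higher and 0 to 2 lower under E2 (1953 to 4636 calls, median 0.68 to 0.79), and 28 to 32 higher and 1 to 3 lower under vehicle (3385 to 7197 calls, median 1.08 to 1.80). The stromal arrays alone cannot give the difference of the effects, so that alternative has no value there. The causes of these shifts were not tested. The arrays hold no detection call, so whether dim members such as Cldn8 lie above background is unknown.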

Other observations

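Of 8 transcription factors known to repress junction genes, 2 were lower in epithelium than in stroma under E2 and 1 was higher, where 9.18% of all probe sets were called lower and 4.43% higher. Under vehicle 6 were lower and 0 higher, against 14.1% and 7.27%. In all 5 measured lower under E2 and 6 under vehicle, with medians of -0.51 under E2 and -0.95 under vehicle. Zeb1 was -0.88 ± 0.15 under E2 (limma, adjusted p = 0.00206) and -1.83 ± 0.15 under vehicle (adjusted p = 1.4e-05). It measured 9.75, 9.73 and 9.27 with E2 and 9.05, 8.96 and 9.45 with vehicle in epithelium, against 10.44, 10.46 and 10.48 with E2 and 11.02, 10.95 and 10.99 with vehicle in stroma. Twist1 was the one that passed in the other direction under E2, 0.97 ± 0.15 higher in epithelium (adjusted p = 0.00122).

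Of 8 hemidesmosome genes, 3 were higher in epithelium under E2, with Itga6 lower, and 4 were higher under vehicle. Over all probe sets 4.43% were called higher and 9.18% lower under E2, and 7.27% higher under vehicle. Lamb3, a laminin chain of the basement membrane, measured 8.68, 9.22 and 9.79 with E2 and 10.81, 11.85 and 9.80 with vehicle in epithelium, with a layer difference of 1.78 ± 0.43 under E2 and 3.61 ± 0.43 under vehicle, both past the threshold. Gjb2, a connexin of gap junctions, was 3.69 ± 0.65 higher in epithelium under E2 and 3.38 ± 0.65 higher under vehicle. These genes were chosen after their values were seen.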
